A study of Mus musculus with 12 samples.

Results

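Glucagon-only cells of mouse islets were taken from single-cell RNA sequencing of dissociated pancreatic tissue. A cell was a member when its glucagon transcript (Gcg) lay above a set level and its pancreatic polypeptide (Ppy), insulin (Ins2) and somatostatin (Sst) transcripts lay at or below theirs, and when it carried no high level of the immune gene Cd74, the stromal gene Col3a1 or the endothelial gene Plvap. By this rule 671 of the 3184 cells of the YFP- libraries were monohormonal Gcg+ cells, called α-cells here, out of 5982 cells in the study. They were 326 of 1495 cells in experiment 1 (21.8%, exact 95% binomial interval 19.7 to 24.0) and 345 of 1689 cells in experiment 2 (20.4%, 18.5 to 22.4). These intervals cover counting error only. The 4 hormones and the 3 excluded genes chose the cells, so their levels are described below and were not tested.

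α-cells secrete glucagon, the peptide that makes the liver release glucose when blood glucose is low. They cut proglucagon with the convertase PC2 (Pcsk2), and their fate depends on transcription factors, among them Iroquois factors. In the islet they lie beside insulin-producing β-cells, somatostatin-producing δ-cells and pancreatic polypeptide-producing γ-cells, and amino acids are among their main stimuli.

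Every mouse carried Ppy-rtTA, TetO-Cre and R26-YFP: the tetracycline transactivator replaced the coding sequence of 1 Ppy allele, so Ppy was heterozygous in all cells, and cells with an active Ppy promoter were marked by YFP in the presence of doxycycline. The animals, of both sexes and of mixed strain background, were 2 months old and drank doxycycline at 1 mg/ml. Islets of the ventral pancreas were dissociated, cells of several mice were pooled in each of the 2 experiments, and YFP+ and YFP- cells were sorted and loaded as separate droplet libraries. Comparison cells were chosen by the same hormone levels: β-cells (Ins2 only, 437 in experiment 1 and 92 in experiment 2), δ-cells (Sst only, 135 and 141) and Ppy+Gcg+ cells (45 and 39) from the YFP- libraries, and γ-cells (Ppy only, 721 and 828) and Ppy+Gcg+ cells (334 and 328) from the YFP+ libraries. No cell of the YFP+ libraries met the limits for α-cells (0 cells), so the α- against γ-cell difference and the difference between the sorted libraries cannot be told apart. Because mice were pooled, each experiment gave 1 sum of cells per class. The p-values come from 1 fit of all 12 sums, with a term for class and a term for experiment. They rest on the spread left over in that fit (5 residual degrees of freedom), combined with information shared across genes. They do not measure the spread between mice.

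The α-cells held 2859630 unique molecular identifiers (UMIs, 1 per captured transcript) in experiment 1 and 2686685 in experiment 2. A median α-cell had 7866 UMIs and 1797 genes in experiment 1, and 6360 UMIs and 1619 genes in experiment 2. β-cells were deeper (medians of 23832 and 12529 UMIs) and δ-cells shallower (4130 and 2942), whereas γ-cells were close to α-cells (7575 and 5887). The mitochondrial share of UMIs had a median of 4.07% and 2.97% in α-cells. The YFP- libraries of the 2 experiments shared 6 cell barcodes, and 5 α-cells had a barcode that also occurred in another library.

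The Gcg promoter is shown because Gcg defines these cells, with the starts of Edn3 and Higd1a beside it because both genes were far higher in α-cells than in β-, δ- and γ-cells (below), while neither was called against the Ppy+Gcg+ cells of the YFP- libraries. RefSeq places Gcg at chr2:62474530-62483653 on the minus strand of GRCm38.p6, the assembly behind mm10. The windows span 300 bases, most of them before the start site, at chr2:62483604-62483903 (minus strand), chr2:174760369-174760668 (plus strand) and chr9:121857747-121858046 (minus strand), and are credited to RefSeq. Capitals mark TATAAA, the TATA box, and TNTTTAC, a forkhead-type motif, on either strand.
Gcg: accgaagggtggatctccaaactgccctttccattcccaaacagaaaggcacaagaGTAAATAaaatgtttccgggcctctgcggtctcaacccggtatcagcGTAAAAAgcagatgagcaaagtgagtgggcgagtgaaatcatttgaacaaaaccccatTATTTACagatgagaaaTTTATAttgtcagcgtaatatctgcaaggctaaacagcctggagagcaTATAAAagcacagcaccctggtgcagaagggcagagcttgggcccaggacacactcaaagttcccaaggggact
Edn3: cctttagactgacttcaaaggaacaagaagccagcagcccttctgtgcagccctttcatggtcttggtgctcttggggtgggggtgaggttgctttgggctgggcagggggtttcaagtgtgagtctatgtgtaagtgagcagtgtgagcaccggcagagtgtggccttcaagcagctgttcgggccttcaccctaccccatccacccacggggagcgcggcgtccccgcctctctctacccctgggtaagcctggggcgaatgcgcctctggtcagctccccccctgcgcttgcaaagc
Higd1a: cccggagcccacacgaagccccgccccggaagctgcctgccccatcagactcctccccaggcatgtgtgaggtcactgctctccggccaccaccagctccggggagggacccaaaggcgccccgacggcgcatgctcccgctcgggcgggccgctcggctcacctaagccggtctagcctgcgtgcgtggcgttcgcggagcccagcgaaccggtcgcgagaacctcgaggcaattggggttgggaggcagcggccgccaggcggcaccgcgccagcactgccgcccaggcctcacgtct
In the Gcg window TATAAA lay 24 bases before the start on the same strand and 72 bases before it on the opposite strand. TNTTTAC lay 89 bases before the start on the same strand, and 147 and 194 bases before it on the opposite strand, and no base was in both motifs. The windows of Edn3 and Higd1a held neither motif, nor TAATTA, a homeodomain-type motif. Of 32851 mouse promoter windows of this length, 13.6% held TATAAA, 12.4% TNTTTAC and 5.29% TAATTA. Of 26 α-cell marker and enriched genes looked for, 15 had a window: TATAAA was in 3 of them (Gcg, Cryba2 and Wnk3), TNTTTAC in 4 (Gcg and the 3 Tmsb15 genes) and TAATTA in 0. A match describes these letters and not a bound site.

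The rule left a clear gap for Gcg and a narrow one for Ppy. On the natural log scale of UMIs per 10000 plus 1, the median α-cell had a Gcg value of 8.02 in experiment 1 and 8.03 in experiment 2. The lowest member had 6.31 and 5.66, and the nearest cell below the limit that met every other condition had 4.73 and 4.75. For Ppy the highest member had 3.21 and 3.228, and the nearest cell above it 3.57 and 3.233, so in experiment 2 the cells ran up to the limit without a gap. Within 0.5 of the Ppy limit there were 19 and 11 members below it and 6 and 14 cells above it. Raising all hormone limits by 0.5 gave 334 and 365 α-cells, and lowering them by 0.5 gave 307 and 331. Of the 935 YFP- cells above the Gcg limit, whatever their other hormones, 20 were dropped for their Cd74 level. Gcg made up a median of 30.4% of a cell's UMIs in experiment 1 and 30.7% in experiment 2, from 5.50% to 47.9% and from 2.85% to 56.1%.

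The 3 markers named with the label, which the rule did not use, were high in the α-cells, and the wider marker list, with members that did not follow, is given further on. Ttr, which encodes the thyroxine carrier transthyretin, stood at 31566 and 21135 CPM in experiments 1 and 2, where CPM are UMI counts of a class scaled to a common, TMM-adjusted total. It was at 1978 and 1248 CPM in β-cells, 197 and 419.6 in δ-cells, and 5536 and 4940.4 in γ-cells. The classes did not overlap. Irx2, an Iroquois factor, was at 65.2 and 56.1 CPM in α-cells and between 1.44 and 4.78 CPM in β-, δ- and γ-cells. Slc7a2, a carrier of cationic amino acids such as arginine, was at 255 and 233 CPM, against 75.5 and 65.7 in β-cells, 6.14 and 21.6 in δ-cells, and 49.02 and 49.95 in γ-cells. Ttr, Irx2 and Slc7a2 were thus all higher in both α-cell sums than in any β-, δ- or γ-cell sum. The share of all genes that separate in this way was not counted. These markers came with the label, so their levels are a description only. Of 11233 genes tested, 150 (1.34%) were called higher in α-cells than in each of these 3 classes.

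Per cell, Irx2 was detected in 43.9% and 34.8% of α-cells, against 2.64% and 2.54% of γ-cells at a similar depth. In non-endocrine cells, here the 229 and 518 cells of the YFP- libraries with a high Cd74, Col3a1 or Plvap level and all 4 hormones at or below their limits, the median depth was 4659 and 2903.5 UMIs. Irx2 was found in 0.873% and 0.965% of them.

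**Figure D1:**
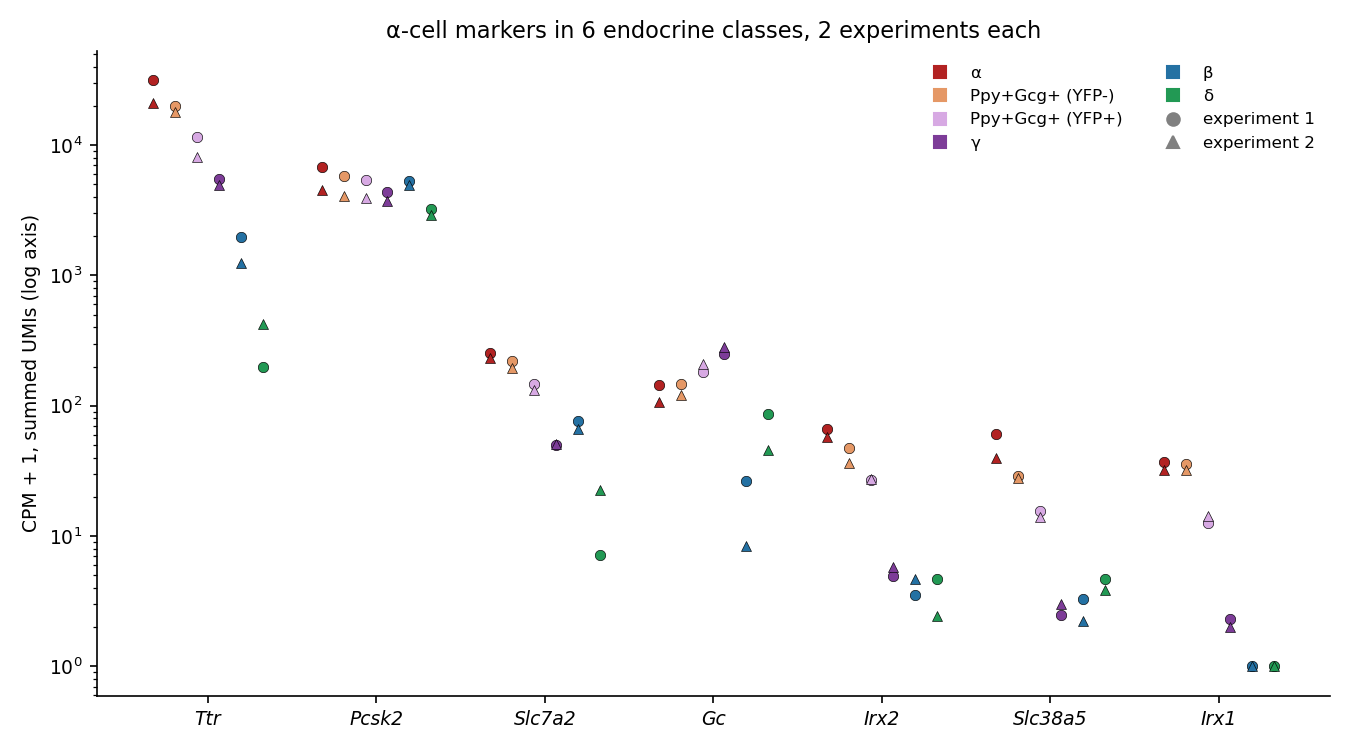
CPM plus 1 on a log axis for 7 α-cell marker genes in 6 classes of cells, with circles for experiment 1 and triangles for experiment 2. Ttr, Irx1, Irx2, Slc7a2 and Slc38a5 are higher in α-cells and in the Ppy+Gcg+ cells of the YFP- libraries than in β-, δ- and γ-cells, whereas Gc is highest in γ-cells.

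The reporter genes are described only, since α-cells came from the YFP- libraries and were capped for Ppy, whose promoter drives rtTA. YFP had 4 UMIs in each α-cell sum (1.29 and 1.28 CPM), against 193 and 164 CPM in γ-cells, and rtTA had 0 UMIs in α-cells and 564 and 306 CPM in γ-cells. Markers of other cell types were not absent. Those of β-cells summed to 13009.7 raw CPM, that is, CPM of all UMIs, in the α-cells of experiment 1 and 5745 in those of experiment 2, led by Ins2, and 230 and 16 α-cells held 1% or more of them. Those of γ-cells summed to 8108 and 7119.9, led by Pyy, and those of δ-cells to 1198 and 1389, led by Rbp4. Acinar enzyme genes summed to 2131 and 130, led by Ctrb1 (811 and 30.9). Immune markers summed to 469 and 1082, led by the immunoglobulin gene Igkc (375 and 848), ductal markers to 170 and 235, and endothelial markers to 6.99 and 24.2. Only 2 α-cells of experiment 1 held 1% or more acinar UMIs, and 2 of experiment 2 held 1% or more immune UMIs.

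Ins2, a gene of the rule, was at 8523 and 3316 raw CPM in α-cells and at 7450 and 3269 in non-endocrine cells of the same libraries. For each 100 Ins2 UMIs there were 28.7 and 31.0 of Ins1 in α-cells and 26.8 and 32.5 in non-endocrine cells. The rule capped Ins2 and Ppy in both kinds of cell, so these levels and the ratios over them are partly set by the choice of cells and are descriptions only. Iapp, which encodes islet amyloid polypeptide, stood at 23.0 and 40.1 UMIs per 100 Ins2 in α-cells, above 6.86 and 12.4 in non-endocrine cells. Pyy, the peptide YY gene, stood at 2263 and 1879 UMIs per 100 Ppy in α-cells, against 224 and 174 in non-endocrine cells. Both ratios were higher in α-cells than in non-endocrine cells in each experiment.

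By the variance over the mean, a measure that grows with the mean, few genes stood out among α-cells. After each cell was thinned to 1000 UMIs, the variance over the mean (Fano factor) had a median of 1.03 in both experiments over 639 genes with a mean of at least 0.1 UMI. Only 5 genes exceeded 2 in both experiments. They were Gcg (15.4 and 28.8), Ttr (20.4 and 14.8), Pyy (13.4 and 8.76), Iapp (8.86 and 11.0) and Malat1 (11.4 and 14.2), a nuclear long noncoding RNA. The next gene, metallothionein Mt1, reached 1.63 and 1.60. The rule bounded Gcg from below, so its spread was partly set by the choice of cells and is a description only. In experiment 1 the cells at the 10th and 90th percentiles gave 21.9% and 39.5% of UMIs to Gcg, against 0.612% and 6.63% to Ttr.

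Ttr took a median of 2.43% of a cell's UMIs in experiment 1 and 1.77% in experiment 2, with extremes of 0.114% and 11.3%, and of 0% and 8.15%. Pyy was skewed: the median cell gave 0.371% and 0.380% of its UMIs to it, the 90th percentile 1.85% and 1.36%, and the highest cell 6.07% and 5.84%. Iapp had medians of 0.0843% and 0.0543% with single cells up to 4.86% and 4.29%. Pcsk2 was tighter, with medians of 0.736% and 0.484% and highest cells at 2.63% and 1.41%. The high Pyy and Iapp values came from cells in both experiments.

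**Figure D2:**
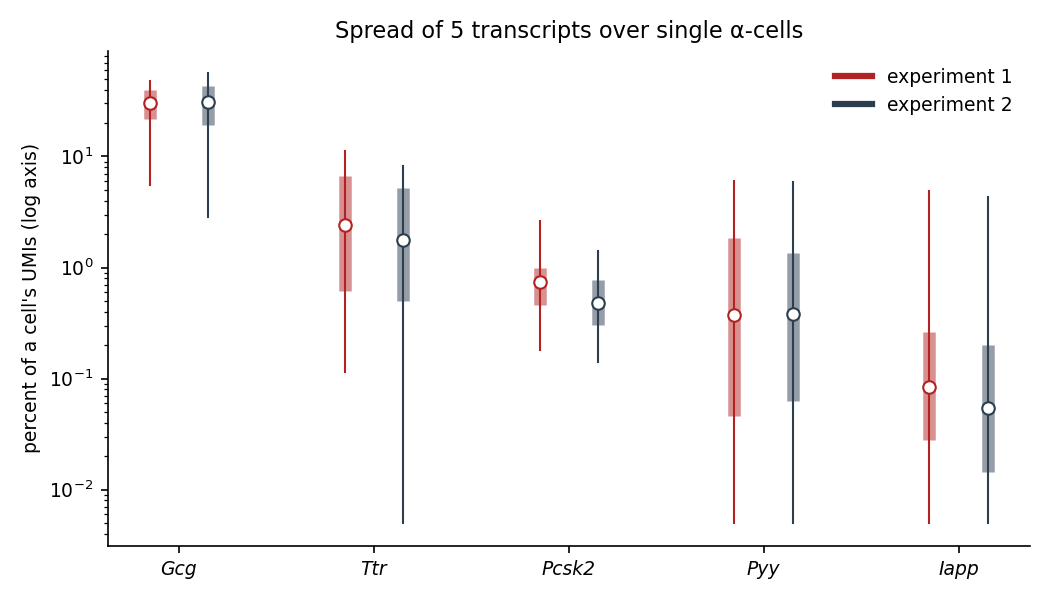
Percent of a cell's UMIs given to Gcg, Ttr, Pcsk2, Pyy and Iapp in the 326 α-cells of experiment 1 and the 345 of experiment 2, on a log axis. Thin lines run from the lowest to the highest cell (0 is drawn at 0.005), bars from the 10th to the 90th percentile and points mark medians, so Pyy and Iapp show the longest upper tails.

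Across all genes, the class sums were compared with edgeR's quasi-likelihood test with the experiment as a block, and a gene was called at a Benjamini-Hochberg adjusted p of at most 0.05 with a fold change above exp(0.5). Of 11233 genes tested, 2290 (20.4%) were called between α- and β-cells, 1092 higher (9.72%) and 1198 lower (10.7%) in α-cells. With upper quartile scaling the split turned to 1349 higher and 981 lower. Against δ-cells 1166 (10.4%) were called, 530 higher (4.72%) and 636 lower (5.66%). Against γ-cells 1175 (10.5%) were called, 646 higher (5.75%) and 529 lower (4.71%), and without the experiment block the paired comparison fell to 635. Called higher in α-cells than in each of β-, δ- and γ-cells were 150 genes (1.34%), and lower than in each 100 genes (0.89%). Leaving out the experiment 1 β-cells lowered the β-cell count to 1169, and leaving out the experiment 1 δ-cells lowered the δ-cell count to 705. These comparisons share the α-cell sums, so their counts are not independent.

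The α-enriched genes described here are among the 20 with the largest fold change over their nearest class, taken from those with at least 50 CPM in both α-cell sums. Log2 fold changes are given with their standard errors, and all adjusted p-values are from edgeR's quasi-likelihood test. Higd1a, a hypoxia-induced mitochondrial protein gene, was at 196 and 233 CPM in α-cells, against 3.67 and 11.2 in β-cells, 0 and 8.62 in δ-cells, and 16.0 and 14.1 in γ-cells. Its log2 fold changes were 5.41 ± 0.31, 5.73 ± 0.41 and 3.82 ± 0.23, with the weakest adjusted p at 7.29e-10. Edn3, which encodes the peptide endothelin 3, was at 106 and 101 CPM in α-cells, and no other of these 3 classes exceeded 11.7 CPM. Its log2 fold changes were 6.42 ± 0.30 over β-cells, 5.26 ± 0.36 over δ-cells and 3.28 ± 0.18 over γ-cells. Irx2 rose by 4.51 ± 0.25, 4.50 ± 0.37 and 3.79 ± 0.19 in the same order. Wnk3, a kinase that regulates chloride carriers, was at 72.6 and 93.2 CPM and was at least 3.08 log2 units above each class.

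Ttr was 4.03 ± 0.26 log2 units above β-cells, 6.38 ± 0.29 above δ-cells and 2.32 ± 0.24 above γ-cells (largest adjusted p = 2.91e-07). Lpl, the lipoprotein lipase gene, was at 277 and 423 CPM in α-cells and 1.96 ± 0.20, 6.25 ± 0.36 and 2.25 ± 0.19 log2 units above β-, δ- and γ-cells. Ndst4, a heparan sulfate sulfotransferase gene, was at 128 and 106 CPM, and γ-cells held less of it by 1.38 ± 0.15 log2 units. The Wnt inhibitor gene Sfrp5 was at 133 and 163 CPM and at least 1.75 log2 units above each. Tmsb15b2, Tmsb15b1 and Tmsb15l were also among the 20, but these thymosin genes are near copies whose reads the counting may have split, so their levels are uncertain. Higd1a, Edn3, Irx2, Wnk3, Ttr and Lpl kept their calls in every alternative processing tried.

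**Figure D3:**
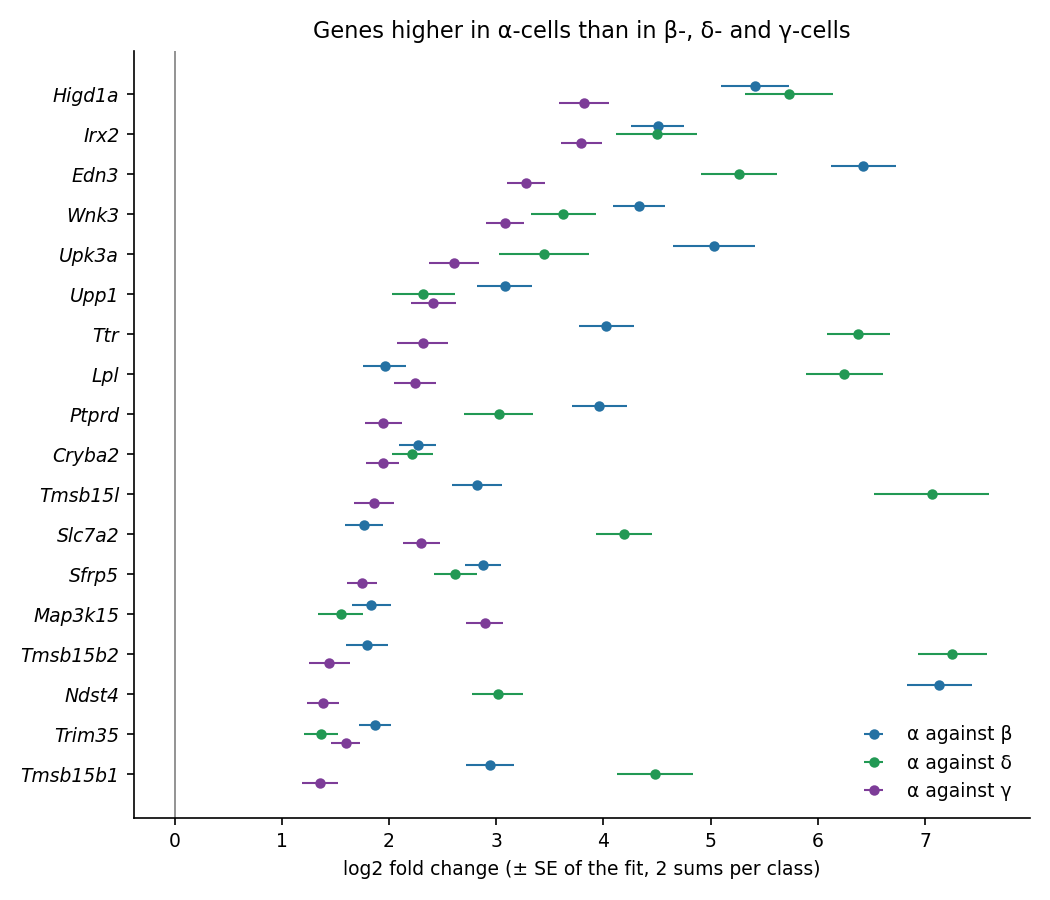
Log2 fold change with its standard error, α-cells over β-, δ- and γ-cells, for 18 of the 20 α-enriched genes of at least 50 CPM with the largest smallest fold change. All points lie to the right of 0, with the fold over γ-cells the smallest of the 3 for most genes, and the fitted fold of Tmsb15l over δ-cells rests on 1 δ-cell UMI.

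Other genes were described by lists of known function. Over all genes tested the median log2 fold change was 0.02 against β-cells, 0.03 against δ-cells and 0.02 against γ-cells. The shares called were 20.4%, 10.4% and 10.5% in the same order, and each list's median and counts can be set beside these. Of 9 α-cell markers, 8 were called higher than in β-cells, 9 higher than in δ-cells, and 6 higher and 1 lower than in γ-cells, with medians of 4.03, 4.50 and 2.32. The gene lower than in γ-cells was Gc, encoding the vitamin D-binding protein, at 144 and 106 CPM against 248 and 281 (-1.10 ± 0.20, adjusted p = 0.000532 by edgeR's quasi-likelihood test, lost without the experiment block). Pcsk2 was not called against β-cells (0.12 ± 0.13, adjusted p = 0.562 by the same test).

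Transcription factors of islet lineages split by the class compared. Of 17, 9 were higher and 5 lower than in β-cells, 7 and 3 than in δ-cells, and 5 and 3 than in γ-cells, with medians of 2.61, 0.83 and 0.03. Irx1 was at 36.2 and 31.1 CPM in α-cells and 0 in β- and δ-cells, which makes it at least 67.1-fold and 16.9-fold higher with 3 UMIs over each group as the floor. It was 4.81 ± 0.29 log2 units above γ-cells. Etv1, an ETS factor, was 4.25 ± 0.20 above β-cells but not called against δ-cells (0.24 ± 0.16) or γ-cells (-0.34 ± 0.15). Thus Irx1, Irx2 and Pou3f4 were higher in α-cells than in γ-cells, whereas Etv1 did not pass the test.

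Several factors of β- and δ-cells were lower in α-cells than in the class they belong to. Pdx1, a pancreatic and β-cell regulator, was at 1.94 and 0.32 CPM, which is -6.07 ± 0.31 against β-cells, -5.20 ± 0.41 against δ-cells and -2.78 ± 0.44 against γ-cells. Mafa, an activator of insulin transcription, fell by 7.52 ± 0.25 on the log2 scale against β-cells (2.26 and 1.28 CPM against 357 and 309). Against γ-cells Mafa was called higher, with 11 UMIs in α-cells and 0 in γ-cells, at least 6.14-fold, and lost its call when cells were thinned. Nkx6-1 was at 2.91 and 11.5 CPM, below β-cells (-5.10 ± 0.31) and γ-cells (-2.69 ± 0.32). The δ-cell factor Hhex was at 0.323 and 5.13 CPM, against 136 and 157 in δ-cells. Of 14 factors shared by endocrine cells, 1 was higher and 5 lower than in β-cells, 2 and 7 than in δ-cells, and 2 and 1 than in γ-cells. Neurod1 was 1.05 ± 0.15 above δ-cells and 0.95 ± 0.13 above γ-cells, and the early endocrine factor Neurog3 had 0 UMIs in α-cells, at least 129-fold lower than in δ-cells.

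Of 11 prohormone processing genes, 1 was higher and 2 lower than in β-cells, 4 and 2 than in δ-cells, and 1 and 2 than in γ-cells. Their medians were -0.22, 0.40 and -0.36. Over all genes 20.4%, 10.4% and 10.5% were called, and the β-cell count was near that share. Pcsk1, the convertase PC1/3 that matures insulin, was at 0.969 and 0.961 CPM in α-cells and 155 and 161 in β-cells (-7.29 ± 0.33, adjusted p = 1.27e-13). It was also below δ-cells (12.3 and 12.9 CPM) and γ-cells (16.0 and 13.7 CPM). Pcsk2 was at 6830.2 and 4529 CPM and 0.87 ± 0.13 log2 units above δ-cells. Pcsk1n, which encodes the PC1/3 inhibitor proSAAS, was at 477 and 845 CPM and was called higher against all 3 classes, by 0.84 ± 0.15, 1.21 ± 0.16 and 1.05 ± 0.15. The β-cell call was lost without the experiment 2 α-cells, and the β- and γ-cell calls without the experiment block. Of 11 granin and granule genes, 2 were higher and 5 lower than in β-cells, 4 and 2 than in δ-cells, and 3 and 4 than in γ-cells, with medians of -0.50, 1.06 and -0.43. Chga, the gene of chromogranin A, was at 2740.3 and 1566 CPM in α-cells and 770.4 and 721 in δ-cells, and was called higher (adjusted p = 1.05e-06 by edgeR's quasi-likelihood test). Against β-cells Chga was called lower, a call lost without the experiment 2 α-cells, and against γ-cells it was not called. Chgb, the gene of chromogranin B, fell by 1.22 ± 0.17, 2.00 ± 0.18 and 1.34 ± 0.17 on the log2 scale, and Scg2 by 2.82 ± 0.24, 2.34 ± 0.23 and 1.93 ± 0.23, against β-, δ- and γ-cells. Slc30a8, the granule zinc transporter, was at 594 and 449.6 CPM in α-cells and 578 and 445 in β-cells, a difference of 0.03 ± 0.16 that was not called. δ-cells (9.83 and 18.7 CPM) and γ-cells (18.9 and 19.5 CPM) were lower by 5.22 ± 0.25 and 4.75 ± 0.19 log2 units. Of 13 zinc and metallothionein genes as a whole, 0 were higher and 5 lower than in β-cells, 2 and 1 than in δ-cells, and 1 and 1 than in γ-cells. Their medians were -0.61, 0.28 and -0.16, and the γ-cell count was near the 10.5% called over all genes.

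Of 20 genes for amino acid transport and sensing, 5 were higher and 4 lower than in β-cells, 9 and 3 than in δ-cells, and 9 and 1 than in γ-cells, with medians of -0.07, 0.46 and 0.25. Slc38a5, a carrier of glutamine and other neutral amino acids, was at 59.7 and 38.5 CPM in α-cells and under 4 CPM in β-, δ- and γ-cells, with log2 fold changes of 4.60 ± 0.28, 3.88 ± 0.39 and 4.78 ± 0.24. Slc7a2 differed by 1.77 ± 0.18, 4.19 ± 0.26 and 2.30 ± 0.17. Slc7a8, a neutral amino acid exchanger, was at 130.4 and 92.3 CPM and higher by 1.14 ± 0.17, 3.31 ± 0.27 and 2.24 ± 0.17. Glud1, glutamate dehydrogenase, was higher by 0.91 ± 0.19, 0.99 ± 0.24 and 0.75 ± 0.17, but its calls against δ- and γ-cells were lost without the experiment 2 α-cells, as were those against δ-cells without either δ-cell sum and against γ-cells without the experiment 2 γ-cells. Slc38a4, a related carrier, was not called against β-cells (53.3 and 47.7 CPM against 54.6 and 40.9, 0.01 ± 0.19) and was 2.49 ± 0.21 above γ-cells. Casr, the calcium-sensing receptor gene, was lower than in γ-cells at 19.4 and 5.13 CPM against 44.7 and 9.35 (-1.12 ± 0.18), a call lost without the experiment 1 α-cells and without the experiment block.

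Of 24 receptor genes, 8 were higher and 10 lower than in β-cells, 8 and 4 than in δ-cells, and 5 and 3 than in γ-cells. Their medians were -0.48, -0.05 and 0.16, and 20.4%, 10.4% and 10.5% were called over all genes. Sstr2, a somatostatin receptor, was at 13.2 and 11.5 CPM in α-cells and 0 in β- and δ-cells, at least 24.7-fold and 6.23-fold higher, and 2.90 ± 0.44 log2 units above γ-cells. Gpr119, a lipid amide receptor, was at 34.5 and 41.0 CPM, above β-cells by 2.39 ± 0.23 and γ-cells by 1.16 ± 0.17, and at least 19.02-fold above δ-cells, which had 0. Avpr1b, a vasopressin receptor, was at 42.3 and 27.2 CPM and higher by 5.58 ± 0.34, 3.73 ± 0.43 and 1.60 ± 0.18. The glutamate receptor subunit Gria2 was at 343 and 302 CPM, 3.35 ± 0.20 above β-cells and 1.65 ± 0.19 above δ-cells, and was not called against γ-cells (0.51 ± 0.16). Ffar1, a fatty acid receptor, was 2.35 ± 0.19 log2 units lower than in β-cells. Adra2a, an adrenergic receptor, had 3 UMIs in α-cells and 260 in β-cells, a ratio of 0.0111 (0.00228 to 0.0328). The glucagon receptor gene Gcgr had 1 UMI in the α-cells (0.323 and 0 CPM), against 11.4 and 9.91 CPM in β-cells, and Glp1r had 0. Igf1r was lower against all 3 classes, at 11.3 and 11.9 CPM against 64.3 and 49.6, 57.7 and 60.4, and 29.5 and 22.5.

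Over all genes tested, 20.4%, 10.4% and 10.5% were called against β-, δ- and γ-cells, with median log2 fold changes of 0.02, 0.03 and 0.02, beside which the following counts and medians stand. Of 29 cyclic AMP signalling genes, 6 were higher and 9 lower than in β-cells, 1 and 5 than in δ-cells, and 5 and 1 than in γ-cells, with medians of -0.18, -0.09 and 0.10. Gnas, the stimulatory G-protein gene, is imprinted, was counted above with the granule genes and was at 2328 and 2115 CPM in α-cells, higher by 2.37 ± 0.13, 1.16 ± 0.12 and 1.61 ± 0.12 (largest adjusted p = 4.9e-07 by edgeR's quasi-likelihood test). Gnai1, an inhibitory G-protein gene, was at 20.02 and 29.8 CPM and higher by 2.06 ± 0.28, 2.88 ± 0.48 and 1.39 ± 0.21. Of 24 glucose genes, 3 were higher and 4 lower than in β-cells, and 4 higher and 0 lower than in δ-cells and than in γ-cells, with medians of -0.04, -0.01 and 0.10. The glucose carrier gene Slc2a2 was at 2.91 and 2.24 CPM against 366 and 263 in β-cells, and G6pc2 at 20.02 and 11.9 against 1009 and 853. Pdk4, which restrains pyruvate oxidation, was at 23.6 and 24.0 CPM in α-cells and 0 in β- and δ-cells, at least 47.5-fold and 12.0-fold higher, and 3.91 ± 0.32 log2 units above γ-cells. Of 27 ion channel genes, 4 were higher and 3 lower than in β-cells, 2 and 7 than in δ-cells, and 2 and 4 than in γ-cells, with medians of -0.03, -0.36 and -0.17. The potassium channel gene Kcnk3 was at 45.8 and 74.0 CPM, 4.48 ± 0.27 above β-cells, and at 52.2 and 83.99 CPM in γ-cells (-0.18 ± 0.15, not called). Of 31 exocytosis genes, 6 were higher and 8 lower than in β-cells, 3 and 2 than in δ-cells, and 2 and 1 than in γ-cells, the last near the share over all genes, with medians of -0.12, -0.05 and 0.0049. Sytl4, a granule docking gene, had 3 UMIs in α-cells against 619 in β-cells.

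Of 24 endoplasmic reticulum folding genes, 0 were higher and 20 lower than in β-cells, with a median of -1.29. Against δ-cells 1 was higher and 3 lower (median -0.29), and against γ-cells 1 and 2 (median -0.28). The chaperone gene Hspa5 was at 199.8 and 156 CPM in α-cells and 467 and 488 in β-cells (-1.42 ± 0.18, adjusted p = 2.52e-06 by edgeR's quasi-likelihood test). Ero1lb, an oxidase that forms disulfide bonds in proinsulin, was at 36.8 and 32.0 CPM against 760.1 and 654 in β-cells, yet 1.22 ± 0.19 log2 units above γ-cells. Of 16 immediate early genes, which respond within minutes to stimuli including tissue dissociation, 9 were higher and 0 lower than in β-cells (median 1.10). The same list gave 4 and 0 against δ-cells, and 1 and 3 against γ-cells. Egr1 was at 154 and 153 CPM in α-cells, 62.0 and 59.5 in β-cells, and 129 and 137 in γ-cells. Of 10 heat shock genes, 0 were called against β-cells, and 1 each was lower than in δ- and γ-cells. Beside these stand the 20.4%, 10.4% and 10.5% called over all genes against β-, δ- and γ-cells. The heat shock counts against δ- and γ-cells, and the folding count against γ-cells, were near those shares.

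**Figure D4:**
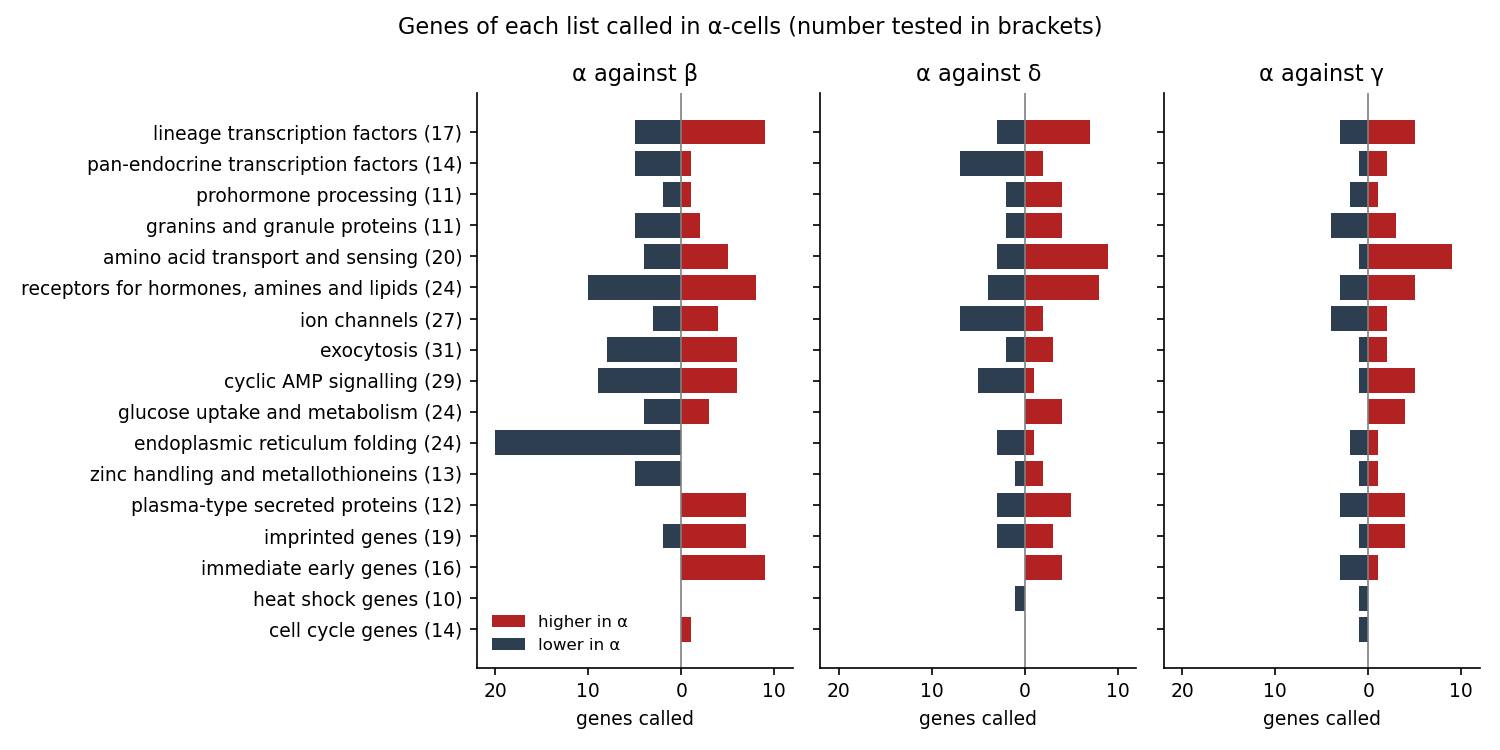
Number of genes of each list called higher (right of 0) or lower (left of 0) in α-cells than in β-, δ- and γ-cells, with the number tested in brackets. The folding genes are called lower against β-cells in 20 of 24 cases, while the amino acid genes lie mainly to the right in the δ- and γ-cell comparisons.

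Pyy and Iapp were called between α-cells and each of β-, δ- and γ-cells, while Iapp was not called against the Ppy+Gcg+ cells of the YFP- libraries. Pyy was at 7137 and 5810.3 CPM in α-cells, above β-cells (727 and 609.7 CPM, 3.27 ± 0.18) and below δ-cells (28402 and 19912, -1.90 ± 0.17) and γ-cells (286681 and 309956, -5.54 ± 0.19). Iapp was at 1811 and 1146 CPM, below β-cells (-5.92 ± 0.24), δ-cells (-3.97 ± 0.22) and γ-cells (-0.97 ± 0.19, a call lost without the experiment 2 α-cells). Of 26 surface protein genes, 4 were higher and 7 lower than in β-cells, 3 and 10 than in δ-cells, and 3 and 9 than in γ-cells. Their medians were -0.21, -0.80 and -0.59, and 20.4%, 10.4% and 10.5% were called over all genes. The tetraspanin gene Tspan8 was at 16.8 and 8.97 CPM in α-cells, against 194 and 119 in δ-cells and 478 and 421 in γ-cells (-5.13 ± 0.23). Cd9, another tetraspanin gene, was at 27.1 and 32.7 CPM, 3.14 ± 0.38 above β-cells and 1.96 ± 0.22 log2 units lower than in γ-cells. The adhesion gene Cadm1 was higher than in β-cells and γ-cells by 2.25 ± 0.23 and 2.04 ± 0.19. Of 12 genes for plasma-type secreted proteins, 7 were higher and 0 lower than in β-cells (median 1.26), 5 and 3 than in δ-cells, and 4 and 3 than in γ-cells. Rbp4, the retinol carrier that binds transthyretin, was at 803 and 757 CPM in α-cells, 64.5 and 202 in β-cells and 3325 and 2426 in δ-cells.

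Some genes called between α- and γ-cells are markers of other cell types. All 9 acinar markers tested were called higher in α-cells than in γ-cells (median 3.44), and 0 were called against β-cells. Against δ-cells, 5 of the 9 were lower in α-cells (Cpa1, Cpb1, Cela1, Cela3b and Pnlip) and 0 higher, with a median of -2.15. These 5 calls were lost with the hormone limits lowered by 0.5, where Cpa1 (0.13) and Cela3b (0.51) changed sign, and without the cells with 1% or more of their UMIs from other cell types Cpa1 (0.15), Cela3b (0.24) and Cpb1 (0.85) did. Without the experiment 1 α-cells, 0 of the 9 calls against γ-cells remained. Ctrb1 was at 749 and 26.6 CPM in α-cells and 28.6 and 10.7 in γ-cells, and at 739.7 and 1484 in δ-cells of the same YFP- libraries. Of 8 immune markers tested, 4 were higher than in γ-cells and 1 was lower. Of 9 β-cell markers tested, 5 were higher than in γ-cells, Ins1, Slc2a2 and G6pc2 among them, and 3 were lower, Iapp among them, with a median of 1.22. Ins1 was at 2261 and 885 CPM in α-cells and 279.8 and 257 in γ-cells (2.46 ± 0.35), beside its non-endocrine ratio given above. G6pc2 was also higher than in γ-cells (1.30 and 0.796 CPM, 3.85 ± 0.32), and stood at 0.254 and 0.415 UMIs per 100 Ins2 in α-cells and 0.0701 and 0.176 in non-endocrine cells. The non-endocrine G6pc2 ratios rest on 8 and 12 UMIs. Slc2a2 stood at 0.0369 and 0.0786 UMIs per 100 Ins2 in α-cells and 0.0438 and 0.0882 in non-endocrine cells. These Slc2a2 ratios rest on 9 and 7 UMIs in α-cells and 5 and 6 in non-endocrine cells, too few to tell them apart. The Slc2a2 call against γ-cells was lost in 6 of 15 settings, among them DESeq2, thinned cells and no experiment block. The summed acinar level in non-endocrine cells was 192 and 234 raw CPM, against 2131 and 130 in α-cells, of which only 2 cells of experiment 1 held 1% or more acinar UMIs. Ctrb1 was at 0% of the UMIs of the median α-cell in both experiments and at 12.1% in the highest cell of experiment 1. The part of RNA from other cells in these α- to γ-cell differences was not tested.

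The Ppy+Gcg+ cells of the same YFP- libraries gave the fewest called genes of the 4 comparisons. Of the 11233 genes, 4 (0.0356%) were called, 1 higher (0.0089%) and 3 lower (0.0267%) in α-cells, and 559 had an unadjusted p of at most 0.05. These classes were split by Ppy alone, and with 45 and 39 Ppy+Gcg+ cells small differences were not detectable at this depth. Of the 150 α-enriched genes, 0 were called in this comparison. Ttr was at 20012 and 17819.6 CPM, Irx2 at 46.4 and 35.5, Edn3 at 111 and 115 and Higd1a at 174 and 158 in Ppy+Gcg+ cells. Pyy was the clearest difference, at 7137 and 5810.3 CPM in α-cells and 39734 and 32849.8 in Ppy+Gcg+ cells (-2.49 ± 0.17, adjusted p = 8.18e-09 by edgeR's quasi-likelihood test). Tspan8 was at 67.2 and 40.0 CPM in Ppy+Gcg+ cells (-2.06 ± 0.33, adjusted p = 0.0103 by edgeR's test), a call lost without either Ppy+Gcg+ sum, without the experiment block, with thinned cells, with the hormone limits lowered by 0.5 and with YFP- sums only. Slpi was high in 1 of the Ppy+Gcg+ sums only, at 0 and 175 CPM. Spp1, a ductal marker, was higher in α-cells at 66.5 and 135 CPM against 4.64 and 11.1 (3.64 ± 0.64, adjusted p = 0.0263 by edgeR's test), but lost its call in most alternatives.

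In the Ppy+Gcg+ cells of the YFP+ libraries, the following genes lay between α- and γ-cells: Ttr at 11553 and 8101 CPM, Irx2 at 26.0 and 26.6 and Slc30a8 at 280.4 and 182. Tmsb15b2, by contrast, was at 1342 and 790.1 CPM, against 1218 and 995 in α-cells. These values are given as a description, since these cells were sorted for YFP and no test was run on them.

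The α-cells of both experiments were alike for most genes. Of 1513 genes with at least 50 CPM in either α-cell sum, 1438 (95.0%) were within 2-fold of each other, with a pseudocount of 1 CPM. The genes farthest above in experiment 1 were Try5 (291 and 6.73 CPM), Ctrb1, Rnase1, Reg1 and Nupr1, of which the first 4 are products of acinar cells. The sum of Ctrb1 rested on few cells, since the α-cell at the 90th percentile had 0.0210% of its UMIs from it in experiment 1 and 0.0114% in experiment 2. In β-cells Try5 was also higher in experiment 1 (57.5 and 9.91 CPM), and in δ-cells it was lower (79.9 and 180 CPM). Those farthest above in experiment 2 were S100a9 (0.323 and 97.7 CPM) and S100a8 (1.61 and 123), both neutrophil genes, and Tff3 (0 and 63.8), Defa24 (0 and 51.3) and Apoa1 (0.646 and 61.8). All of these were also higher in experiment 2 in the β-, δ- and Ppy+Gcg+ cells of the YFP- libraries. S100a9 was at 0.386 and 124 CPM in β-cells, 0 and 90.5 in δ-cells, and 0 and 75.5 in those Ppy+Gcg+ cells. In γ-cells it was at 0 in both experiments. With 1 sum per experiment these differences have no test, and none of these 10 genes is an α-cell marker.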

How the data were processed

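Droplet single-cell libraries were made from YFP+ and YFP- islet cells in 2 experiments. Per the labels and the study's methods, the authors processed them with Cell Ranger on mm10 with YFP and rtTA added, and the deposited values are UMI counts per gene and cell. The cells in the files carried no fewer than 500 genes, with mitochondrial shares up to 6.97%. The bulk table was not used here, and 6 of its columns belong to no sample. Members, gene lists and tests were chosen with earlier results of these data known.

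Cells were assigned by the hormone rule (Python 3.11.15, scipy 1.17.1), and doublets were not removed in the main analysis. Counts were summed per class and experiment (12 sums) and tested with edgeR 4.0.16 (TMM, filterByExpr, quasi-likelihood, class plus experiment), with Benjamini-Hochberg adjustment. No sources used here tie cells to mice. The experiment paired the sums, since those sharing one deviated together (correlations of α-cell with other sums from 0.274 to 0.441). Named genes were the members of the lists, the 10 called genes farthest in each direction with at least 50 CPM in the higher class, and the 20 enriched genes; predicted genes were not named, some genes of the lists are not reported here, and a few others (Malat1, Mt1 and the genes of the Ppy+Gcg+ comparison) were chosen after their values were seen. The script was tested on simulated counts. Alternatives were DESeq2 1.42.0, other scaling, filters, thresholds, thinning, doublet removal and leaving out each sum.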

Additional observations from a re-analysis of the deposited data

How the results depend on the processing

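In what follows β, δ, γ and Ppy+Gcg+ stand for the comparison of α-cells with that class, counts in brackets are genes higher and lower in α-cells, and the cause of each change was not tested unless the setting itself removed cells, sums or counts. The experiment number served as a replicate block. With no replicate block the calls were 635 for γ (346 and 289) and 1 for Ppy+Gcg+ (0 and 1). With cells thinned to 1000 UMIs, which removes counts, they were 559 for β (294 and 265), 433 for δ (229 and 204), 332 for γ (198 and 134) and 67 for the α-enriched genes. DESeq2 gave 334 genes higher against δ, 705 for γ (376 and 329) and 2 for Ppy+Gcg+ (0 higher). With a log2 fold change of at least 1, 342 genes were lower against γ and 95 were α-enriched, and with the adjusted p alone 230 were α-enriched. For Ppy+Gcg+ there were 35 calls with no filter (22 and 13). That comparison had 2 calls, 0 of them higher, with thresholds raised by 0.5, with thresholds lowered by 0.5, with YFP- sums only, and without cells with at least 1% of UMIs from other cell types, an alternative chosen after seeing the data. Without doublet neighbours 0 genes were higher there, and without the 2% of cells with most UMIs 2 were.

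Leaving out 1 sum at a time gave 1169 to 2302 calls for β (509 to 1049 higher, 660 to 1253 lower), 705 to 996 for δ (313 to 501, 392 to 495), 814 to 924 for γ (438 to 530, 376 to 450), 1 to 10 for Ppy+Gcg+ (0 to 8, 1 to 3) and 108 to 152 α-enriched genes. The lowest β and δ counts were those without the experiment 1 β-cells and δ-cells. Where an arm kept 1 sum, it was assumed to vary like the other classes. The other counts of calls stayed within 1.5 times of the reported one. Upper quartile scaling put the median over all genes against β-cells at 0.13 (log2).

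Of 516 results for named genes, 294 kept their call in every setting, 222 lost it in at least 1 and 13 changed sign in at least 1. Leaving out 1 sum at a time gave log2 fold changes from -0.12 to 1.64 for Ffar4, -1.89 to 0.41 for Folr1, -1.48 to 0.49 for Pde4b and -1.36 to 0.093 for Trpm4 against β-cells, with the change of sign in the fit without the experiment 1 β-cells. Against δ-cells Folr1 ran from -3.44 to 5.43, the latter without the experiment 1 δ-cells. Against γ-cells Apoa1 ran from -2.81, without the experiment 2 γ-cells, to 5.10, Cela2a from -0.40 to 3.13, Pnlip from -0.036 to 4.18 and Tff2 from -0.64 to 3.74, the lowest of the last 3 without the experiment 1 α-cells. With thresholds lowered by 0.5, values against δ-cells became 0.51 for Cela3b, 0.39 for Clps and 0.13 for Cpa1. Without cells with 1% of other cell types they became 0.24 for Cela3b, 0.21 for Clps, 0.15 for Cpa1 and 0.85 for Cpb1, and against γ-cells -0.025 for Cela2a and -0.56 for Tff2. Apoa1 became -0.48 against γ-cells with DESeq2.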

Other observations

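The cytosolic ribosomal protein genes, a group looked at after the values were seen, differed most often between α- and β-cells. Of 81 tested, 76 were called higher than in β-cells (median log2 fold change 1.23), 55 higher than in δ-cells (0.80) and 29 higher than in γ-cells (0.64), with 0 lower in each. The shares called over all genes, in either direction, were 20.4%, 10.4% and 10.5%. Against the Ppy+Gcg+ cells of the YFP- libraries 0 were called in either direction (0.12), and 26 were higher against all of β-, δ- and γ-cells. Ribosomal protein transcripts took a median of 18.1% and 19.8% of an α-cell's UMIs in experiments 1 and 2, against 3.86% and 4.19% in β-cells, 13.6% and 16.5% in δ-cells, and 9.10% and 9.77% in γ-cells. These are shares of all UMIs, without TMM adjustment, so they also depend on how many UMIs other genes took. In β-cells the β-cell markers summed to 747539 and 704673 raw CPM.

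Of 19 imprinted genes, 7 were higher and 2 lower than in β-cells (median 0.79), 3 and 3 than in δ-cells (-0.20), and 4 and 1 than in γ-cells (0.40). Grb10, an adaptor that dampens insulin receptor signalling, was at 77.2 and 106 CPM in α-cells, against 10.2 and 7.44 in β-cells, 8.60 and 20.1 in δ-cells, and 49.6 and 49.2 in γ-cells. Peg10 was at 14.5 and 16.0 CPM in α-cells and 0 in β-cells, at least 30.5-fold higher with 3 UMIs as the floor, and it was 1.69 ± 0.32 log2 units above γ-cells. Of 14 cell cycle genes tested, 1 was higher than in β-cells, 1 was lower than in γ-cells and 0 were called against δ-cells. The cell cycle counts lay below the 20.4%, 10.4% and 10.5% called over all genes against β-, δ- and γ-cells. Mki67 had 3 UMIs in the α-cells of experiment 1 and 11 in those of experiment 2, found in 0.920% and 3.19% of α-cells and in 13.1% and 15.6% of the shallower non-endocrine cells. Xist, the X-inactivation RNA, was found after thinning in 126 of 326 α-cells of experiment 1 and 311 of 345 of experiment 2. It was at 1096 and 2271 CPM in α-cells, 342 and 1150.0 in β-cells and 754 and 2064 in δ-cells. The study used both sexes, but the sex make-up of each pool is not given. Whether the pools differed in sex was not tested, and sex and experiment cannot be told apart here.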
